A study of Homo sapiens with 6 samples.

Results

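A set of 55 autosomal genes was expressed in the si-FTO group of AGS cells but had a mean read as no expression in the si-NC group. The set was selected on the data themselves. A gene entered it when its si-FTO mean was 10 TPM or more and its si-NC mean was exactly 0.0001. That value is read as no expression and called listed at 0 here, although 31 of the group means lay below it. TPM is a transcript level corrected for transcript length and library size. Of the 58174 genes in the table, 65 met the levels, of which 60 were autosomal in the GRCh37 GENCODE annotation. ALPI, MGMT, CAVIN3 and 2 keratin genes were left out by symbol, which gave the 55 members. In si-FTO 8833 autosomal genes reached 10 TPM and are called the expressed genes. Of these, 0.679% were listed at 0 in the control group, and because this contrast chose the members, nothing is read from it. In the opposite direction the share was 1.56% of the autosomal genes that reached 10 TPM in si-NC, and 136 of them, after the same symbols were left out, form the mirror set used for comparison.

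AGS is a line of human gastric adenocarcinoma cells. Total RNA was sequenced from 3 libraries treated with the control siRNA (si-NC, genotype labelled wild type) and 3 with an siRNA against FTO (si-FTO, genotype labelled FTO-/-). Depletion by siRNA and a deleted gene are different things, and the label and the description of the treatment were not reconciled. The table holds 1 mean per group and no value per library, so no spread, test or depth stands behind any value below, and in such bulk RNA fewer expressing cells and less RNA per cell cannot be told apart.

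FTO removes the methyl group of N6-methyladenosine, the most frequent internal modification of messenger RNA, which influences splicing, stability and translation. Genes that are silent in a cell line are often held so at the promoter, and those with few CpG dinucleotides there tend to serve a restricted set of tissues, whereas CpG-rich promoters are typical of genes used in most cells. Epithelia of the stomach and skin share surface proteases, defence peptides and inflammatory caspases, several of which are named below.

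The depleted gene was examined before the members. FTO was at 33.1 TPM in si-NC against 7.27 in si-FTO, which was 21.9% of the control level and a log2 ratio of -2.05. Ratios are of si-FTO over si-NC after 1 TPM was added to each mean, and a gene with a log2 ratio of at least 1 is called higher and of at most -1 lower, with no test. Counts of such calls take genes with at least 1 TPM in a group unless stated. A gene under 1 TPM in si-NC enters such a count only through si-FTO, which largely fixes its call as higher. The reverse holds for genes under 1 TPM in si-FTO. FTO lies on chromosome 16 at chr16:53735604-54192424. Its transcript was lower in the group labelled for its depletion and still present there.

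Markers of the labelled cell type were uneven. EPCAM, an adhesion molecule of nearly all epithelial cells, was at 1.22 TPM in si-NC against 0.113 in si-FTO. CDH1, the epithelial cadherin, was at 3.67 and 0.685 TPM in the same order. Both defining markers were thus above 1 TPM in si-NC and below it in si-FTO, though by the ratio CDH1 was lower and EPCAM neither. The epithelial list that holds them went both ways: of 8 genes with at least 1 TPM, 4 were higher and 2 lower. Of the higher, ELF3, CLDN4 and ST14 were under 1 TPM in si-NC and counted through si-FTO alone. The lower genes, CDH1 and CDH3, were counted through si-NC alone, so nothing is read from these counts. Over all other autosomal genes 12.7% were higher and 19.4% lower. Higher genes of the list included ELF3, at 0.115 and 93.3 TPM, and CLDN7, at 1.17 and 14.8 TPM. Keratins of simple epithelia, looked up after other values had been seen, were present and differed: KRT8 was at 10.8 TPM in si-NC against 3139 in si-FTO. KRT18, its partner in the filament, was at 52.1 and 1851 TPM. None of 13 gastric genes, among them the stomach mucins and trefoil peptides, reached 1 TPM in either group, and CLDN18, the most abundant, was at 0.627 and 0.759 TPM. Whether both groups hold the same kind of cells was not tested. With lineage markers this far apart, a difference between the cells of the groups and an effect of FTO depletion cannot be told apart, and this holds for every gene listed at 0 in si-NC.

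The members ranged from 10.3 to 558 TPM in si-FTO, with a median of 21.3 TPM. The median of the 8833 expressed genes was 33.8 TPM. Together the members made up 2944 TPM, or 0.294% of all TPM in the group, and the 6 highest held 54.6% of that sum. Those were TM4SF1 at 558 TPM, STEAP4 at 272, NCCRP1 at 256, PRSS21 at 233, MT1E at 153 and SNRPN at 134. At least 100 TPM was reached by 7 members, 50 to 100 TPM by 6, 20 to 50 TPM by 16 and 10 to 20 TPM by 26. Most of the set was therefore of modest level, led by a few abundant transcripts. The mirror set had no such leaders, with a median of 16.6 TPM and a highest value of 97.6 TPM in si-NC.

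**Figure D1:**
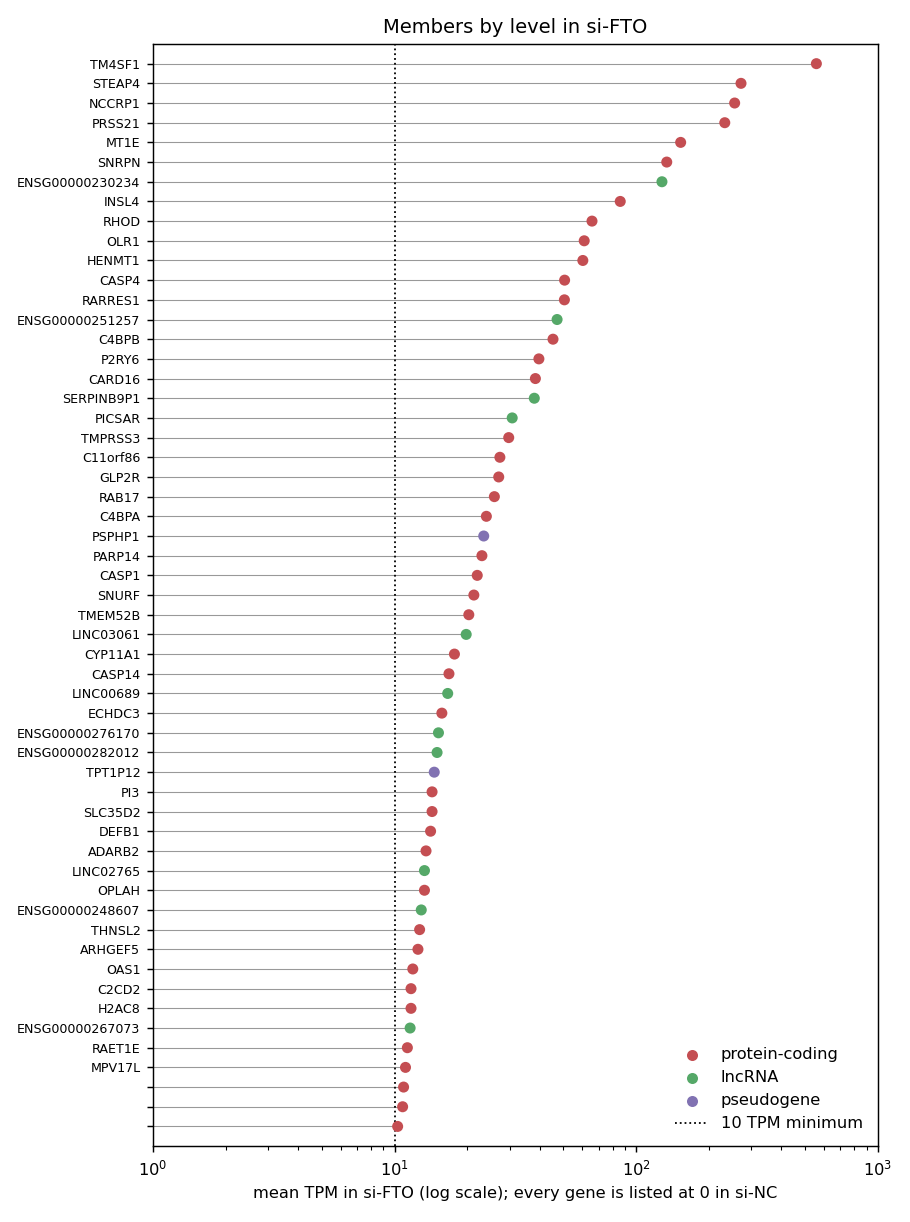
Mean TPM in si-FTO of the 55 members on a log axis, ordered by level and coloured by biotype, 1 point per gene; all are listed at 0 in si-NC and no error exists for a group mean. Values run from 558 TPM for TM4SF1 to 10.3 TPM for PLEK2, just above the dotted minimum of 10 TPM. Names are given from 11 TPM up.

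Genes close to the limits show how the rule cut a continuous range. Just inside it were CCL26 at 10.9 TPM and PLEK2 at 10.3. Just outside, listed at 0 in si-NC, were the pseudogene NUDT16L2P at 9.51 TPM, ENSG00000267288 at 9.34 and LCN2, the siderophore-binding lipocalin, at 9.31. Other genes missed the set by a trace in si-NC. A2M, the broad protease inhibitor of plasma, stood at 0.0135 TPM in si-NC against 3394 in si-FTO. FAM83A was at 0.00804 and 75.4 TPM. Of the 8833 genes, 273 or 3.09% were at or below 1 TPM in si-NC.

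By biotype, 42 members (76.4%) were protein-coding, 11 were long noncoding RNAs (lncRNAs) and 2 (3.64%) were pseudogenes. Among the 8833 expressed autosomal genes 93.8% were protein-coding and 2.81% lncRNAs. In the mirror set the shares were 93.4% and 5.15%. The noncoding share was thus larger in the members than in either comparison set, a difference that was not tested. Coding members had a median of 22.5 TPM and the lncRNAs a median of 16.6 TPM. Transcripts were short, with a median of 1623 bases in the members and 3000 in the expressed genes. Under 500 bases lay 14.5% of the members and 1.89% of the expressed genes, and TPM of such short transcripts is the least certain.

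The promoters of the members differed in base composition from those of other expressed genes. Each window ran from 250 bases before to 50 bases from the annotated start on, on the strand of the gene, read from the GRCh37 genome. A window was called CpG-rich with a ratio of observed to expected CpG of at least 0.6 and a GC content of at least 50%. Of the members 16 (29.1%) were CpG-rich, against 83.8% of the mirror set and 87.2% of the expressed autosomal genes. Among protein-coding genes alone the shares were 35.7% of members and 90.5% of expressed genes. Over all autosomal coding genes, expressed or not, the share was lower, at 66.5%, with a median ratio of 0.780. The median ratio was 0.310 in members, 0.790 in the mirror set and 0.880 in expressed genes. Read the other way, members were 3.46% of the 1128 expressed genes with CpG-poor promoters and 0.208% of the 7705 with CpG-rich ones. Windows of the most abundant member and of the member with the highest ratio are shown as a CpG-poor and a CpG-rich example, with each CpG in capitals. The lowest ratio, 0.04, was that of C11orf86. TM4SF1 (chr3:149095387-149095686, minus strand) had a ratio of 0.21 with 4 CpGs, and HENMT1 (chr1:109203666-109203965, minus strand) a ratio of 1.19 with 44.
TM4SF1: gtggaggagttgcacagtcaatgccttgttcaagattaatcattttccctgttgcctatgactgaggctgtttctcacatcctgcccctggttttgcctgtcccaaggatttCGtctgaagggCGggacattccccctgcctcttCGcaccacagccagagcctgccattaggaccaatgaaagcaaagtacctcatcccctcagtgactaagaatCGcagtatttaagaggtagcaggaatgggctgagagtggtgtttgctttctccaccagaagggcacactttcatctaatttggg
HENMT1: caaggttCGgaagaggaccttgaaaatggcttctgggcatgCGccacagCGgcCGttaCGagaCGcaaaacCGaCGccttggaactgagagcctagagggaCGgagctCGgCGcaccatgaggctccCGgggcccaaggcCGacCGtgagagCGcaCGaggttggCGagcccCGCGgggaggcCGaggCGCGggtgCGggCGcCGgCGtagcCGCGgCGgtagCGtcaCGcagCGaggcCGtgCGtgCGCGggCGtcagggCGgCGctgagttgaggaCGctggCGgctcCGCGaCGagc

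**Figure D2:**
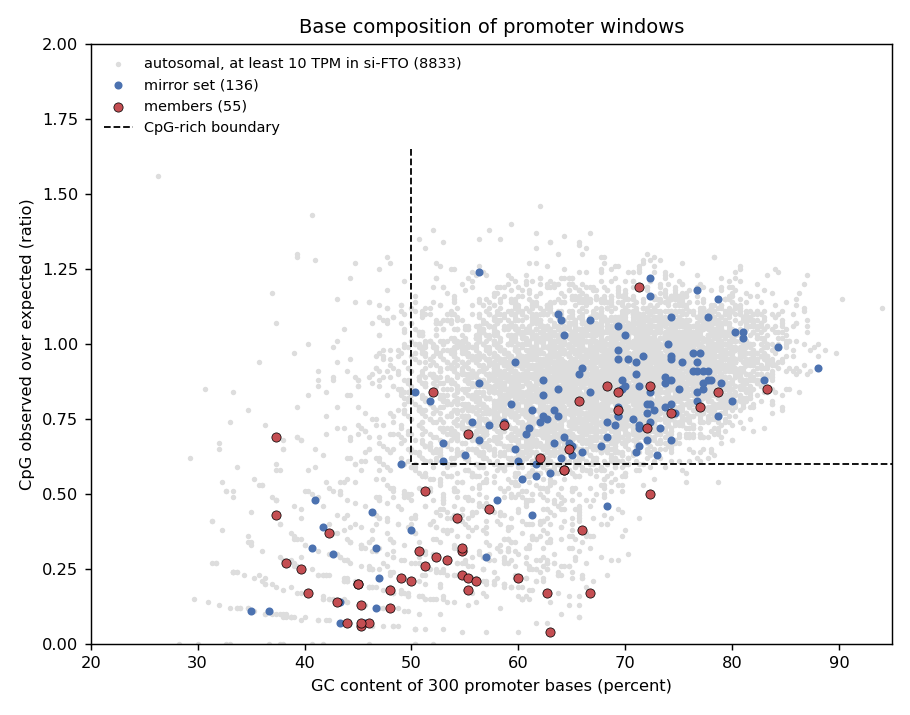
GC content in percent (horizontal axis) against the ratio of observed to expected CpG (vertical axis) of the 300-base promoter windows, 1 point per gene, for the members, the mirror set and the expressed genes. The dashed line bounds the CpG-rich windows, which hold 29.1% of the members, 83.8% of the mirror set and 87.2% of the expressed genes.

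The 42 coding members were sorted into 8 roles by textbook knowledge after the set was known. Innate immunity and inflammation held 11 members, with 11.5% of the summed level of the set. Metals, metabolism and transport held 8 members and 17.3%, RNA and chromatin 5 and 8.19%, and small GTPases and cytoskeleton 4 and 3.89%. Epithelial barrier and defence held 4 members and 10.2%, proteases and their inhibitors 3 and 9.28%, and hormones and their receptors 2 and 3.84%. The remaining 5, with 22.7%, were led by TM4SF1.

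Inflammatory caspases supplied 3 members of a single cluster. CASP4, which senses bacterial lipopolysaccharide in the cytosol, was at 50.6 TPM in si-FTO. CASP1, the caspase that matures interleukins in the inflammasome, was at 22.0 TPM. CARD16, a short relative of CASP1 that holds only its recruitment domain, was at 38.3 TPM. All 3 lie in that cluster on the minus strand of chromosome 11, with no other expressed gene between them, 56.0 kb between CASP4 and CASP1 and 6.08 kb between CASP1 and CARD16. CASP5 and CARD18 of the same cluster were listed at 0 in both groups, so the expressed genes were 3 members and not the whole cluster. CASP1 and CARD16 are alike in sequence, and their reads may be divided between them with error. Of the other inflammasome genes, in a list added after the members were known, 3 of 14 reached 1 TPM. GSDMD, the pore former cleaved by these caspases, was at 0.0124 TPM in si-NC against 11.9 in si-FTO. IL18, a substrate of CASP1, was at 0.260 and 30.3 TPM. NLRP1, an inflammasome sensor, was lower, at 11.1 and 0.103 TPM. The 11 others stayed under 1 TPM, among them IL1B, another substrate of CASP1, the adaptor PYCARD and the sensors NLRP3, AIM2 and NLRC4. Over all other autosomal genes with at least 1 TPM 12.7% were higher and 19.4% lower, and 3 genes are too few to read as a direction.

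The interferon-response motif, GAAA followed after 2 bases of any kind by GAAA, was searched on both strands of each promoter. It was found in 4 members (7.27%), in 0.735% of the mirror set, in 2.69% of the expressed autosomal genes and in 3.29% of all autosomal coding genes. Of the 4 members 2 are copies of each other, so their matches are not separate. No copy of the motif was in the window of OAS1. In OLR1 the copy lay 211 bases before the start. In PARP14 (chr3:122399436-122399735, plus strand), shown here as a member of the interferon response with the motif in capitals, it began 29 bases before the start. A match describes letters only, and the shares were not adjusted for the base composition of the windows, which differed between the sets.
PARP14: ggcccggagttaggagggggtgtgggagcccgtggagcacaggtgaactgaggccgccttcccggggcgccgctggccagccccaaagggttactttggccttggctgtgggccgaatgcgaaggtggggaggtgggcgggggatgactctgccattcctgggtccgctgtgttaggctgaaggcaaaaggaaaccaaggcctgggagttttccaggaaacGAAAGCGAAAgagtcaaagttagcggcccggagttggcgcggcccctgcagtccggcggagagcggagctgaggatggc

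Interferon-induced genes supplied OAS1 and PARP14. OAS1, the synthetase that senses double-stranded RNA, was at 11.9 TPM in si-FTO. Its neighbour and relative OAS3, 4.83 kb away, was at 2.52 TPM in si-NC against 20.2 in si-FTO, and OASL at 0.0107 and 10.8 TPM. OAS2, beside them in the family, was listed at 0 in si-NC and reached 0.0528 TPM. Of the family, OAS3 alone was thus above 1 TPM in si-NC. PARP14, an ADP-ribosyltransferase of the interferon response, stood higher than OAS1 in si-FTO. PARP9 and DTX3L, which act as a pair in that response and lie 116 and 106 kb from PARP14, were at 1.78 and 18.3 TPM and at 2.16 and 18.8 TPM in si-NC and si-FTO. Of 11 genes with at least 1 TPM that share the symbol root of PARP14, PARP9 included, 4 were higher, 3 lower and 4 neither. Among them, PARP10 and PARP12 were counted as higher through si-FTO alone, and PARP11 as lower through si-NC alone. HSPBAP1, the nearest such neighbour of PARP14, was neither, at 11.3 and 21.1 TPM. In the interferon list, OAS1 apart, 5 of 8 genes with at least 1 TPM were higher and 1 lower. Of the higher, IFIT3 and MX1 were under 1 TPM in si-NC and counted through si-FTO alone. Over all other autosomal genes with at least 1 TPM, 12.7% were higher and 19.4% lower. BST2, a tether of budding virus and the most abundant gene of the list in si-FTO, was at 1.41 and 439 TPM. ISG15, a ubiquitin-like modifier, was at 7.18 and 64.8 TPM. The gene that was lower was HERC5, the ligase that attaches ISG15, at 10.4 and 1.25 TPM. The summed level of the list was 67.8 TPM in si-NC against 791 in si-FTO. The list did not move as a block, since IFI27 and IFIT1 were neither higher nor lower.

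Complement control was represented by both chains of C4b-binding protein, an inhibitor of the classical pathway made chiefly by the liver. C4BPB, the beta chain, was at 45.3 TPM in si-FTO and C4BPA, the alpha chain, at 24.0 TPM. The genes lie 4.24 kb apart on chromosome 1. CD55, a membrane inhibitor of the convertases in the same gene cluster, was at 50.1 TPM in si-NC against 325 in si-FTO, and CD46, a cofactor of factor I, at 30.1 and 102 TPM. CR2, the receptor of B cells from that cluster, was at 1.97 TPM in si-NC but absent, listed at 0, in si-FTO. PFKFB2, the metabolic gene next to C4BPB, was at 10.9 and 14.2 TPM. Of 8 other complement regulators with at least 1 TPM, in a list added after the members were known, 6 were higher and 1 was lower, where 12.7% and 19.4% of all other autosomal genes were. CFI and VTN, among the higher, were under 1 TPM in si-NC and counted through si-FTO alone. CR2, the lower gene, was counted through si-NC alone. Among the higher was CD59, which blocks the membrane attack complex, at 54.2 and 473 TPM. The liver list gave no company to C4BPA and C4BPB: none of its 11 genes, albumin included, reached 1 TPM in either group.

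The other immune members were receptors and signals. OLR1, a scavenger receptor for oxidised LDL, was at 61.0 TPM in si-FTO, and P2RY6, a receptor for extracellular UDP, at 39.6 TPM. RAET1E, a stress ligand of natural killer cells, was at 11.3 TPM and CCL26, a chemokine for eosinophils, at 10.9 TPM. Among relatives of CCL26, 3 of 25 reached 1 TPM, each in si-FTO alone. They were CCL2 at 0.0552 and 6.27 TPM, CCL5 at 0.0243 and 3.13 TPM and CCL21 from a listing at 0 to 1.72 TPM. All 3 were called higher, beside 12.7% over all other autosomal genes. Their calls follow from how they passed the limit, and nothing is read from them. RAET1G, related to RAET1E, was higher too, at 3.50 and 17.6 TPM. Other P2Y receptors did not follow P2RY6, with P2RY1 at 9.70 TPM in si-NC but absent, listed at 0, in si-FTO and P2RY2 at 3.11 and 4.25 TPM.

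Barrier genes were those of skin and mucosa. NCCRP1, a protein of squamous epithelia, was at 256 TPM in si-FTO. CASP14, the caspase of cornifying skin, was at 16.8 TPM, PI3, the elastase inhibitor elafin, at 14.3 TPM and DEFB1, an epithelial defensin, at 14.1 TPM. SLPI, a protease inhibitor related to PI3 and 75.7 kb from it, was at 0.0729 TPM in si-NC against 345 in si-FTO. The squamous list did not accompany NCCRP1 and CASP14. Only DSC3, a desmosomal cadherin, reached 1 TPM among its 11 autosomal genes, at 20.9 TPM in si-NC against 0.962 in si-FTO, and 9 of the 11 were listed at 0 in si-FTO.

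Among proteases, PRSS21, the membrane-anchored serine protease testisin of male germ cells, was at 233 TPM in si-FTO and TMPRSS3, a transmembrane serine protease needed for hearing, at 29.7 TPM. Of 14 genes that share the symbol root of TMPRSS3 none reached 1 TPM. ST14, the epithelial protease matriptase and a relative added by hand, was at 0.0376 TPM in si-NC against 39.3 in si-FTO. Of 23 genes that share the symbol root of PRSS21, 8 reached 1 TPM, 3 of them higher and 2 lower, beside 12.7% and 19.4% over all other autosomal genes. The higher were PRSS56, at 0.0234 and 514 TPM, PRSS23, at 8.46 and 228 TPM, and PRSS8, at 0.382 and 1.90 TPM. PRSS12 was lower, at 9.63 and 0.150 TPM, as was PRSS35, at 2.50 TPM in si-NC and listed at 0 in the other group. PRSS56 and PRSS8 were counted through si-FTO alone and PRSS12 and PRSS35 through si-NC alone. Their calls were largely fixed in this way, and nothing is read from the count. The germ cell list did not accompany PRSS21: LIN28B, a block to let-7 maturation, was its only gene with at least 1 TPM, at 41.2 TPM in si-NC against 0.00563 in si-FTO.

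Small GTPases and actin regulators included RHOD, a GTPase of endosomes, at 65.7 TPM in si-FTO. RAB17, a Rab protein of polarised epithelium, was at 25.9 TPM, ARHGEF5, a guanine nucleotide exchange factor, at 12.5 TPM and PLEK2, a pleckstrin of spreading cells, at 10.3 TPM.

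Metal handling was represented by STEAP4 and MT1E. STEAP4, a reductase of iron and copper, was at 272 TPM in si-FTO, while its relatives were not higher: STEAP1 was at 22.9 TPM in si-NC against 0.476 in si-FTO and STEAP3 at 33.0 and 30.5 TPM. MT1E, a metallothionein that binds zinc and copper, was at 153 TPM. MT2A, in the same cluster on chromosome 16, was at 32.5 and 314 TPM. MT1X was at 32.3 and 15.7 TPM and MT1F at 5.31 and 1.78 TPM, and MT1G and MT1M were listed at 0 in both groups. The cluster was thus divided, with MT1E and MT2A at high levels in si-FTO and 2 others below their si-NC levels. Metallothionein copies are alike in sequence, and reads shared between them make each value uncertain.

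Metal-response motifs, TGCACNC or TGCGCNC on either strand, were found in 27.3% of members, 41.2% of the mirror set and 41.6% of expressed genes. TATAAA on either strand was found in 9.09%, 10.3% and 5.40% in the same order, and in 9.71% of all autosomal coding genes. The AP1 motif TGANTCA was found in 10.9%, 3.68% and 3.34%, and the NF-kB motif, GGG followed after 5 bases of any kind by CC, counted where copies overlap too, in 65.5%, 76.5% and 76.0%. Over all autosomal coding genes the shares were 36.7% for the metal-response, 5.35% for the AP1 and 69.5% for the NF-kB motif. The median GC content of the windows was 54.7% in members, 69.3% in the mirror set and 66.3% in expressed genes. None of these shares was tested or adjusted for that difference.

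Metabolic members were spread over unrelated pathways. CYP11A1, which cleaves the side chain of cholesterol at the start of steroid synthesis, was at 17.7 TPM in si-FTO. FDX1, its electron donor, was lower in si-FTO, at 7.90 TPM, and CYP17A1, a later enzyme, was at 0.0386 and 2.94 TPM. ECHDC3, a mitochondrial hydratase-like protein, was at 15.7 TPM, SLC35D2, a nucleotide-sugar carrier, at 14.3 TPM and OPLAH, the oxoprolinase of the glutathione cycle, at 13.3 TPM. THNSL2, a threonine synthase-like protein, was at 12.7 TPM and MPV17L, an organelle membrane protein, at 11.1 TPM.

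A placental hormone and a gut hormone receptor stood in the set. INSL4, an insulin-like peptide of the early placenta, was the higher of the 2 in si-FTO. RLN2 and RLN1, the relaxin genes beside it on chromosome 9, went the other way, at 3.54 and 1.38 TPM in si-NC but absent, listed at 0, in si-FTO. Placental markers were mixed: of 3 autosomal genes with at least 1 TPM, CGA, the alpha subunit of glycoprotein hormones, was at 0.674 and 4.39 TPM and TFAP2C, a trophoblast factor, at 7.72 and 18.1 TPM, but GATA3 was at 22.4 and 0.890 TPM. GLP2R, the receptor of an intestinal growth hormone, was at 27.0 TPM. Of 15 intestinal genes 2 reached 1 TPM. CDX2, the intestinal master regulator, was at 18.1 TPM in si-NC but absent, listed at 0, in si-FTO, and HNF4A at 0.0255 and 1.09 TPM.

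Among RNA and chromatin genes SNRPN and SNURF come from a single imprinted locus on chromosome 15, where the paternal copy alone is normally active. SNRPN, a core spliceosomal protein, was at 134 TPM in si-FTO and SNURF, encoded upstream on the same transcript, at 21.3 TPM. Both values share exons, and how reads were divided between them is not known. The host transcript of the small nucleolar RNAs downstream, SNHG14, was at 0.164 TPM in si-NC against 27.9 in si-FTO. PWAR6, from the same stretch, was at 0.00948 and 7.15 TPM and MKRN3, another paternally expressed gene, at 0.900 and 9.76 TPM. UBE3A, which is expressed from both copies outside neurons, was at 25.9 and 31.9 TPM. Of 5 other genes of the imprinted cluster with at least 1 TPM, in a list added after the members were known, 4 were higher. The share over all other autosomal genes was 12.7%, and UBE3A was the exception. Only UBE3A reached 1 TPM in si-NC. The 4 passed the limit through si-FTO alone, so nothing is read from this count. NDN and NPAP1, also paternally expressed genes of the list, were listed at 0 in both groups, and MAGEL2 was at 0.0583 TPM in si-NC and listed at 0 in the other group. SNRPB, the near-identical paralogue outside the cluster, was at 657 and 600 TPM. The shared promoter of SNRPN and SNURF (chr15:25199884-25200183, plus strand) had a ratio of 0.58, just below the CpG-rich limit, with its 18 CpGs in capitals.
SNURF: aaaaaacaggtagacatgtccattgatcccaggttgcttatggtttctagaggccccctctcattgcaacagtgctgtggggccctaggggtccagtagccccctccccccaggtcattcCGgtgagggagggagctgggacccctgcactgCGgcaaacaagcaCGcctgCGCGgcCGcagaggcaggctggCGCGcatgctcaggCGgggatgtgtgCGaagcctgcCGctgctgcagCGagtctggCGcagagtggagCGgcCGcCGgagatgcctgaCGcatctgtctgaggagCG

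The other 3 genes of this role are unrelated. HENMT1, which methylates the ends of piRNAs in germ cells, was at 60.2 TPM in si-FTO. TDRD9, a helicase of the piRNA pathway, was at 0.00180 TPM in si-NC against 24.8 in si-FTO, but PLD6 was lower, at 23.9 and 10.1 TPM, and GTSF1 was at 5.86 TPM in si-NC but absent, listed at 0, in si-FTO. ADARB2, a brain relative of the RNA editing enzymes, was at 13.5 TPM, while ADAR itself was at 195 and 191 TPM. H2AC8, a histone H2A of dividing cells, was at 11.7 TPM. Other copies went both ways. H2AC6, at 1.82 and 28.4 TPM, and H2AC11, H2AC13 and H2AC17 were higher, but H2AC12 was at 1.47 and 0.216 TPM, and H2AC16 at 1.21 TPM in si-NC was listed at 0 in the other group.

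The 5 coding members outside these roles were TM4SF1, RARRES1, C11orf86, TMEM52B and C2CD2. TM4SF1, a surface antigen of many carcinomas, was the most abundant member at 558 TPM. No relative came near it, the highest being TM4SF19 at 0.641 TPM in si-FTO. RARRES1, a retinoic-acid-responsive carboxypeptidase inhibitor, was at 50.5 TPM, and LXN, its relative 24.2 kb away, at 16.1 TPM in si-NC against 122 in si-FTO. C11orf86, of little known function, was at 27.3 TPM, TMEM52B, a membrane protein, at 20.3 TPM and C2CD2, a lipid-binding protein, at 11.7 TPM.

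Of the 11 lncRNAs, ENSG00000230234 was the most abundant at 128 TPM in si-FTO, followed by ENSG00000251257 at 47.1 TPM, SERPINB9P1 at 37.9 and PICSAR, named for squamous cell carcinoma, at 30.7. LINC03061, LINC00689, ENSG00000276170, ENSG00000282012, LINC02765, ENSG00000248607 and ENSG00000267073 lay between 11.6 and 19.8 TPM. A total of 5 overlapped a protein-coding gene, each on the opposite strand, and all 5 of those genes were higher in si-FTO, beside 12.7% of all other autosomal genes and 94.7% of those that overlap any member. Of these genes, SLC22A2 and VIPR2 were under 1 TPM in si-NC and passed the limit only through si-FTO, which largely fixed their calls. EGFLAM, a matrix protein opposite ENSG00000251257, was at 2.86 TPM in si-NC against 53.9 in si-FTO. ARHGAP23 opposite ENSG00000276170 was at 2.42 and 36.7 TPM, VIPR2 opposite LINC00689 at 0.0927 and 11.8 TPM, and SLC41A3 opposite ENSG00000248607 at 26.6 and 96.3 TPM. SLC22A2 opposite ENSG00000230234 was listed at 0 in si-NC but at 1.16 TPM in si-FTO. The library kit keeps strand, but whether strand was used in quantification is not stated, so reads of these lncRNAs and of the genes opposite them cannot be told apart with certainty.

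The pseudogenes were PSPHP1 at 23.4 TPM and TPT1P12 at 14.6 TPM. TPT1, the abundant parent of TPT1P12, was at 369 TPM in si-NC against 436 in si-FTO, and PSPH, the parent of PSPHP1, at 36.6 and 24.2 TPM. TPT1P12 lies inside PZP on the same strand, and PZP, a plasma protease inhibitor related to A2M, was at 0.0160 and 14.1 TPM. Both parents were thus expressed in si-NC, where the copies were listed at 0.

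The members were spread over 20 of the 22 autosomes, with none on chromosomes 4 and 18. Chromosomes 7 and 11 held 6 each, and chromosome 21 held 3, or 5.45% of members against 0.974% of the expressed autosomal genes. Within 1 Mb of another member lay 13 members (23.6%), in 8 pairs, against 18.4% of the mirror set. The mirror set is larger, with 136 genes, and a larger set has more such pairs, so the shares are not on a like basis. SNRPN and SNURF, which share a transcript, count as a pair. Beside the pairs of caspases, C4b-binding protein and SNRPN, the pairs were C11orf86 and RHOD (79.8 kb apart, with SYT12 between them), OLR1 and TMEM52B (overlapping on opposite strands) and C2CD2 and TMPRSS3 (418 kb apart). SYT12, a synaptotagmin, was at 0.289 TPM in si-NC against 76.0 in si-FTO, and PC, pyruvate carboxylase beyond C11orf86, at 28.4 and 197 TPM. KDM2A, on the far side of RHOD, was at 58.3 and 77.4 TPM. Near OLR1, GABARAPL1, an autophagy protein, was at 27.0 and 129 TPM and KLRC2, a receptor of natural killer cells, at 0.0357 and 10.9 TPM. These loci were thus mixed: SYT12, PC, GABARAPL1 and KLRC2 were higher in si-FTO beside the members, and KDM2A was neither higher nor lower.

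**Figure D3:**
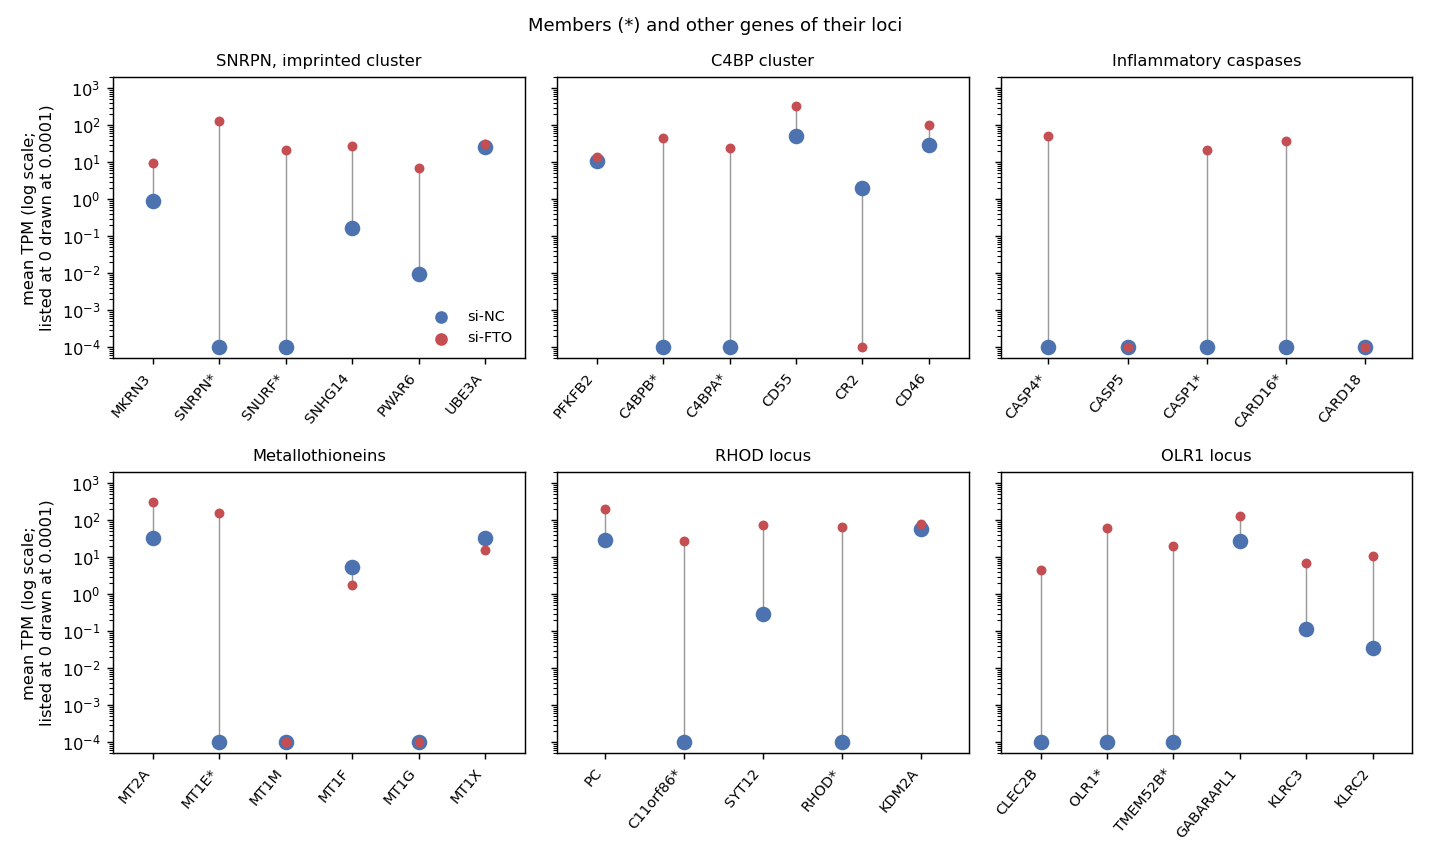
Mean TPM in si-NC (large points) and si-FTO (small points) on a log axis for genes of 6 loci in the order shown, with members starred, values listed at 0 drawn at 0.0001, and no error available. Members join the bottom of the axis to values of 20.3 TPM or more, while UBE3A, PFKFB2 and KDM2A are close to equal in both groups.

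Neighbours were compared over the whole set. The nearest gene with at least 1 TPM in a group, other members left out, was higher for 31 of 55 members (56.4%) and lower for 3 (5.45%). Most of these higher neighbours, among them TM4SF1-AS1, SYT12 and SLPI, were under 1 TPM in si-NC. They passed the limit only through si-FTO, which largely fixed their calls. The limit was the same for the comparison sets, and no share among neighbours of at least 1 TPM in si-NC is given. Nearest neighbours of the other expressed autosomal genes were higher in 12.2% and lower in 14.9%. Neighbours of the mirror set showed the opposite balance, 4.41% higher and 48.5% lower. Neighbours that overlap a member were then left out, since reads may be shared: the share was 45.5% for members and 12.5% for the other genes. With neighbours of at least 10 TPM the shares were 47.3% and 12.5%. The neighbours come from the same contrast of means that chose the members, so these shares are a description with no test.

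Shares by distance from a member were taken over autosomal genes with at least 1 TPM in a group. Of 19 such genes that overlap a member 18 were higher, and of 152 at up to 100 kb 33.6% were higher and 11.8% lower. Most of the 19, among them EIF1P4, MIR4645 and SLC22A2, were under 1 TPM in si-NC. They entered only through si-FTO, which largely fixed their calls, so no range is read from these shares. The same limit applied at every distance. From 100 to 500 kb 80 of 533 genes were higher and 71 lower, and from 500 kb to 2 Mb 13.9% were higher and 15.5% lower. Farther away 12.2%, or 1803 of 14807, were higher and 2965 lower. The share of genes listed at 0 in si-NC went from 26.3% of overlapping genes to 8.55% within 100 kb and 2.81% at 100 to 500 kb, against 1.08% in the most distant class. Such genes entered only through si-FTO, and the listing at 0 is the value that the rule used. Nothing is read from this share either. Examples at short range were TM4SF1-AS1, 86 bases from TM4SF1, listed at 0 in si-NC but at 5.89 TPM in si-FTO, and EEIG2, 3.39 kb from HENMT1, at 8.42 and 57.4 TPM. Members without such company were NCCRP1, whose neighbour PAK4 was at 60.2 and 35.8 TPM, and PLEK2, whose neighbour EIF2S1 was at 68.7 and 94.2 TPM.

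**Figure D4:**
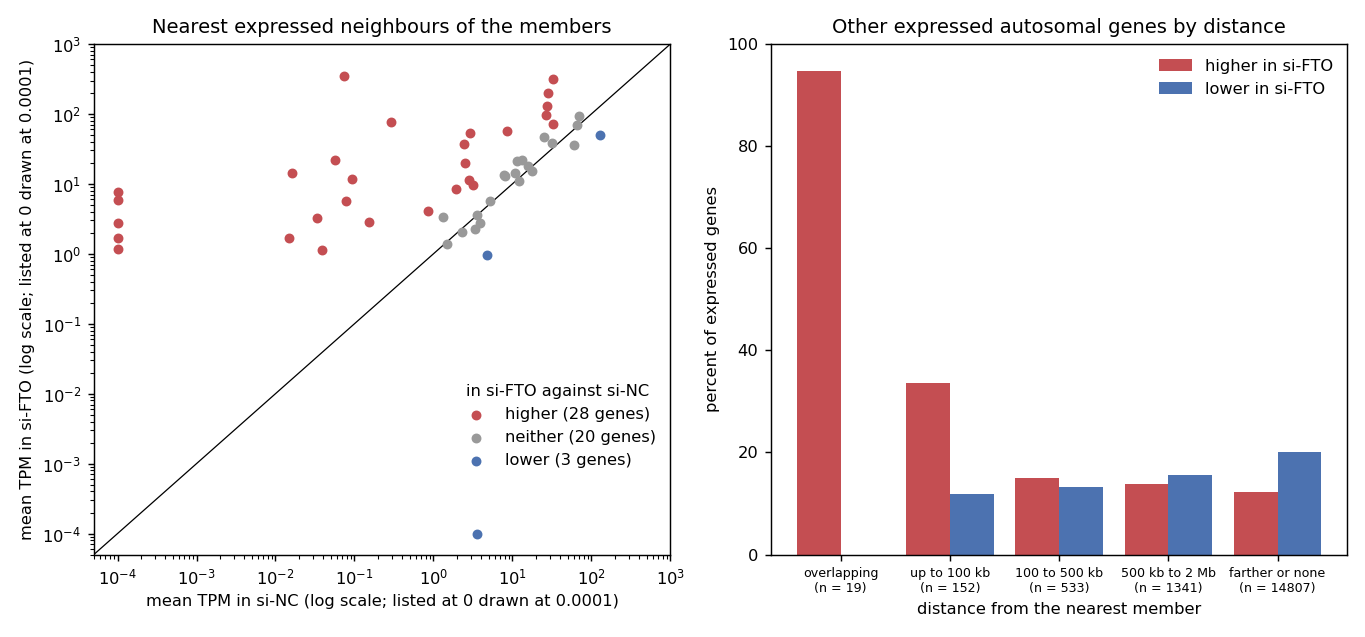
Left, mean TPM in si-NC and si-FTO, both on log axes, of the nearest expressed neighbour of each member, each gene drawn once and values listed at 0 drawn at 0.0001. Right, the percent of autosomal genes with at least 1 TPM in a group that were higher or lower in si-FTO by distance from the nearest member. It runs from 94.7% higher among overlapping genes, most of which reached 1 TPM in si-FTO alone, to 12.2% in the most distant class.

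Overlap bears on single values. Any gene of the table overlapped 27 members, and a gene with at least 1 TPM overlapped 18, on the same strand for 4 and on the opposite strand for 15. In si-NC a gene of at least 10 TPM overlapped only RARRES1 (MFSD1, at 32.2 and 71.4 TPM) and ENSG00000248607 (SLC41A3). For these, a mean listed at 0 in si-NC stood across from a well expressed gene.

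The remaining cell type lists were read for company to the members, and none of them held a member. Their counts stand beside 12.7% higher and 19.4% lower over all other autosomal genes with at least 1 TPM. Epithelial genes with at least 1 TPM were higher in 4 of 8 cases and lower in 2, with a summed level of 9.73 TPM in si-NC against 153 in si-FTO. The most abundant in si-FTO was ELF3, an epithelial transcription factor, at 0.115 and 93.3 TPM. Mesenchymal genes were higher in 1 and lower in 3 of 9, with VIM, vimentin, at 440 and 752 TPM and a sum of 508 and 796 TPM. Endothelial genes were higher in 1 of 2, CDH5, the endothelial cadherin, at 0.00827 and 40.9 TPM, with a list sum of 2.36 and 43.3 TPM. Haematopoietic genes were lower in 3 of 4 and higher in 1, CD68 at 1.49 and 6.42 TPM, and their sum was 21.0 and 8.03 TPM. Neuronal and neuroendocrine genes were higher in 1 of 5, SNAP25 at 0.316 and 9.72 TPM, and lower in 3, among them UCHL1, a neuronal ubiquitin hydrolase, at 303 and 0.0204 TPM, with a sum of 382 and 15.5 TPM. Of the higher genes of these lists only CLDN7 and CD68 reached 1 TPM in si-NC. Of the lower genes only TWIST1 and FN1 reached it in si-FTO. The other calls were largely fixed by the limit, so nothing is read from these counts. Single markers of several lineages thus differed between the groups beside the members, and their part in the set was not tested.

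Lists that hold members gave these sums in si-NC and si-FTO: metallothioneins 70.1 and 485 TPM with 1 of 3 others higher and 1 lower, and antimicrobial genes 0.807 and 383 TPM with both others higher, SLPI and LCN2. SLPI and LCN2 were under 1 TPM in si-NC and were counted through si-FTO alone, so nothing is read from their calls. Steroid synthesis genes summed to 44.6 and 48.7 TPM with 1 of 4 others higher and 1 lower, and piRNA genes to 60.5 and 115 TPM with 1 of 5 higher and 2 lower. The higher genes, CYP17A1 and TDRD9, were counted through si-FTO alone, and GTSF1, among the lower, through si-NC alone. Relaxin and insulin genes summed to 5.52 and 86.4 TPM with both others lower, RLN1 and RLN2, which were counted through si-NC alone. Over all other autosomal genes 12.7% were higher and 19.4% lower, and each of these lists is small. Inflammasome genes summed to 11.9 and 154 TPM, imprinted genes of chromosome 15 to 27.0 and 234 TPM and complement regulators to 172 and 1191 TPM. The larger sums in si-FTO contain the members themselves, which the rule placed there.

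**Figure D5:**
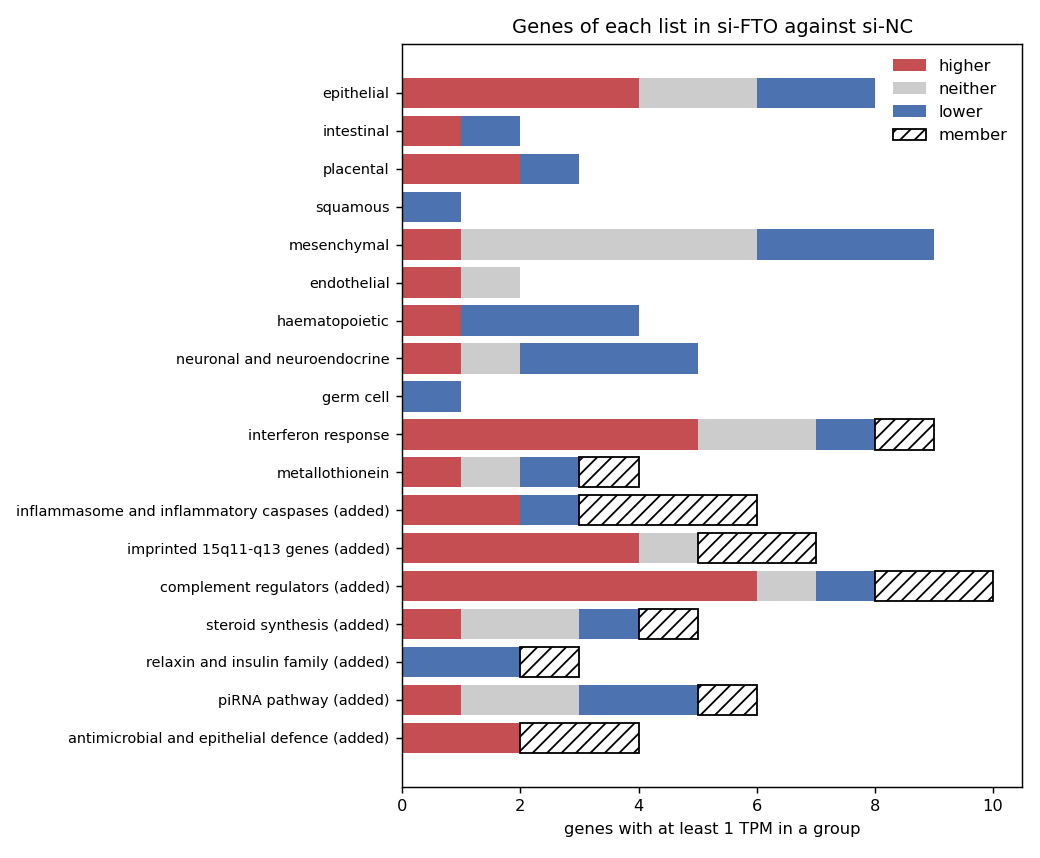
Number of autosomal genes with at least 1 TPM in either group in each gene list, divided into genes higher, neither and lower in si-FTO against si-NC and members (hatched); lists marked as added were drawn up after the members were known. Complement regulators have 6 higher and 1 lower beside 2 members, and interferon genes 5 higher and 1 lower beside OAS1. In both lists some of these genes reached 1 TPM in a single group, which largely fixed their calls.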

How the data were processed

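RNA was sequenced from 3 si-NC and 3 si-FTO libraries of AGS cells. In the deposited table the authors give TPM, averaged within each group. Reads were mapped to hg19 with Bowtie and quantified with RSEM according to the study's methods, whereas the submitters' processing notes name HISAT2. Depth is unknown, and means carry no error between libraries. The authors' log2 fold changes, p-values and q-values, and a table of the genes those selected, were not used. Genes were joined by Ensembl identifier to GENCODE release 44 lifted to GRCh37, and 2448 of 58174 were not found; 4 of these met the levels of the rule. Ratios used a pseudocount of 1 TPM. Promoter windows came from the GRCh37 genome at the start of the canonical transcript. Scripts ran in Python 3.11.15 with pandas 2.3.3 and numpy 2.4.6 and were tested on simulated data.

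Some of the items below are not reported here. Named in full were the 15 highest, members of a fixed list, members within 1 Mb of another, and the genes beside the thresholds, with FTO and the neighbours and relatives of these. Further genes were picked with their values in view. The members and all lists, 13 fixed and 7 added, were chosen with earlier results of these data known.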

Additional observations from a re-analysis of the deposited data

How the results depend on the processing

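The number of members followed the limits of the rule. It was 91 with a minimum of 5 TPM in si-FTO, 29 with 20 TPM and 13 with 50 TPM, and 133 where si-NC could reach 0.1 TPM, each by construction of the limit. With si-NC at up to 0.01 TPM it was 62. The share of members whose nearest expressed neighbour was higher was 72.4% among members of at least 20 TPM, an alternative chosen after seeing the data, and the cause was not tested. Under the 7 other alternatives, of which 2 (si-NC at up to 0.1 TPM, 50.4%, and each neighbour counted once, 54.9%) were also chosen after seeing the data, it lay between 45.5% and 60.0%, the latter with the groups scaled by their median ratio, which moved log2 ratios by 0.13. The FTO log2 ratio was -2.17 with a pseudocount of 0.1 TPM, by construction of the scale. The coding share was 82.8% and 80.5% under its alternatives, and the CpG-rich share 18.2% under stricter limits, against 71.2% of expressed genes.

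No paired analysis was possible because the table holds 1 mean per group. Leaving out a library and the replicate block were not run for the same reason. Depth is not given, so the lowest level that a listing at 0 allows is unknown.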
